A study of Mus musculus with 8 samples.

Results

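Death ligands and the route of extrinsic apoptosis were described by 8 genes, chosen by name: the ligands *Fasl* and *Tnfsf10*, the receptors *Fas* and *Tnfrsf10b*, the adaptor *Fadd*, the initiator caspase gene *Casp8*, its inhibitor *Cflar*, and *Bid*. They were 8 of 48321 gene symbols in the count tables, and 7 of the 8 passed the filter on low counts that left 12595 genes for testing. *Tnfrsf10b* was left out by that filter. RNA was sequenced from NK cells freshly sorted as CD45+ TCRb- NK1.1+ from lung and spleen of C57/Bl6 mice. The animals were wild type (Wt) or homozygous for a deletion of the proximal enhancer of the chemokine gene *Ccl5*, written *Ccl5*ΔPE/ΔPE and labelled KO. There were 2 libraries in each of 4 groups (lung Wt, lung KO, spleen Wt and spleen KO), with 3132963 to 26482366 reads assigned to genes per library. The study's mice were of mixed sexes unless otherwise specified. They were 1.5 to 4 months old by its methods, and 4 weeks to 4 months old by its reporting summary. Neither labels nor methods state if replicate libraries stem from different animals or from pools, so the p-values below measure the spread between libraries, which may be technical. The deletion is carried by every cell of the animal, so NK cells and their surroundings both lack the enhancer.

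FAS ligand and TRAIL, the products of *Fasl* and *Tnfsf10*, are members of the TNF family that NK cells use, beside their cytotoxic granules, to kill target cells. On the receiving cell they bind FAS or the TRAIL receptor encoded by *Tnfrsf10b*, whose death domains recruit the adaptor FADD and caspase-8. c-FLIP, encoded by *Cflar*, resembles caspase-8 and holds back its activation, and caspase-8 can cut BID, which carries the signal to mitochondria.

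*Ccl5* itself checked the labels. Its level fell from 18934 ± 826 to 3094 ± 143 CPM (reads per 1e+06 reads on genes, scaled by TMM; SD, n = 2) in lung and from 16172 ± 718 to 2554 ± 173 CPM in spleen. The cell type label was checked against 9 NK cell markers. All 9 were detected in every library, with summed levels of 35503 to 50810 CPM, and *Gzma*, a granzyme gene, was the most abundant of them in each.

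*Fasl* was lower in KO than in Wt NK cells of the lung and higher in those of the spleen. *Casp8* rose and *Cflar* fell in lung KO cells, while *Bid* rose in spleen KO cells. In lung, 3 of the 7 tested members passed the test (1 higher, 2 lower), and in spleen 3 (2 higher, 1 lower), in the quasi-likelihood test of edgeR, with p-values adjusted by Benjamini-Hochberg across every tested gene and a threshold of 0.05. Across all tested genes the same test called 55.6% in lung and 57.1% in spleen, so the members' shares were near the background and say nothing particular about them. The description therefore rests on the values of each gene.

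The promoters of *Fasl*, *Casp8* and *Cflar*, the members called in lung, are shown with the bases that precede the RefSeq start (GRCm38.p6). They cover chr1:161788496-161788745 on the minus strand for *Fasl*, chr1:58802252-58802501 on the plus strand for *Casp8* and chr1:58711241-58711490 on the plus strand for *Cflar*. Capitals mark a match to the RUNX letters TGTGGT. The start used for *Casp8* lies inside the gene as GENCODE annotates it.
Fasl: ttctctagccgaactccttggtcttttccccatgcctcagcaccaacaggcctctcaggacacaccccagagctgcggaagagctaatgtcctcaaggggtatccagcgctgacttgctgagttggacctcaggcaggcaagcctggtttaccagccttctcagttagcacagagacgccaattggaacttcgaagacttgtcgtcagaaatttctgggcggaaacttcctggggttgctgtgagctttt
Casp8: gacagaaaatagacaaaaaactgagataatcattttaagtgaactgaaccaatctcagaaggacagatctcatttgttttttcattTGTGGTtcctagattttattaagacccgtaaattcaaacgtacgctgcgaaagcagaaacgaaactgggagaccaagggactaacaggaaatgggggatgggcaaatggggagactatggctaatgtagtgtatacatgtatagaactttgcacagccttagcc
Cflar: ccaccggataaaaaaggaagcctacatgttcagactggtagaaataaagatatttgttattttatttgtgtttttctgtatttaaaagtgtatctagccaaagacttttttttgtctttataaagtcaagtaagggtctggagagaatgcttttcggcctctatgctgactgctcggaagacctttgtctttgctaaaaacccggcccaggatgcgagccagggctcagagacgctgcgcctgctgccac

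RefSeq promoters were found for 7 of the 8 members, the exception being *Tnfrsf10b*. The 4 motifs searched on both strands were TGTGGT (RUNX), TGANTCA (AP-1), TTCNNNGAA (STAT) and a joint IRF and STAT motif. *Casp8* held the RUNX letters 164 to 159 bases before its start, and 14.0% of 32851 promoters of the same length held them. *Fas* held TGAGTCA, 211 to 205 bases before its start, and TTCTGGGAA, 93 to 85 bases before it. These AP-1 and STAT letters occurred in 6.75% and 7.02% of promoters, and the joint motif, found in no member, in 2.98%. The matches are a description of the letters and not of binding.

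*Fasl* (ENSMUSG00000000817.10, chr1:161780689-161788495, minus strand) encodes FAS ligand and was the member with the highest level. It was at 1463 and 1447 CPM in lung Wt and 1148 and 1167 CPM in lung KO, against 646.5 and 682.4 CPM in spleen Wt and 879.5 and 884.6 CPM in spleen KO. No library of a group overlapped with any other group. The order of the groups was lung Wt, lung KO, spleen KO and spleen Wt.

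Each neighbouring pair in that order differed beyond the spread between libraries. In lung, *Fasl* fell by 0.33 on the log2 scale in KO (SE 0.04, edgeR quasi-likelihood adjusted p = 6.71e-10), a change of -20.5%. In spleen it rose by 0.41 (SE 0.04, edgeR adjusted p = 1.81e-11), a change of 32.4%. Between the organs, lung KO exceeded spleen KO by 0.39 (SE 0.04, edgeR adjusted p = 6.56e-12). The lung lead over spleen was larger in Wt, at 1.13 (SE 0.04, edgeR adjusted p = 5.10e-25), or 118.3%. In bulk RNA such as this, fewer cells of a type and less RNA per cell cannot be told apart.

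The KO effect on *Fasl* differed between lung and spleen by -0.74 on the log2 scale (SE 0.05, edgeR adjusted p = 5.36e-15, interaction contrast). This contrast called 61.6% of all tested genes. The call in lung was lost when the spread between libraries was set to a coefficient of variation of 0.1 (the estimate was 2.5%) (adjusted p = 0.0622), whereas the call in spleen held (adjusted p = 0.0206).

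**Figure D1:**
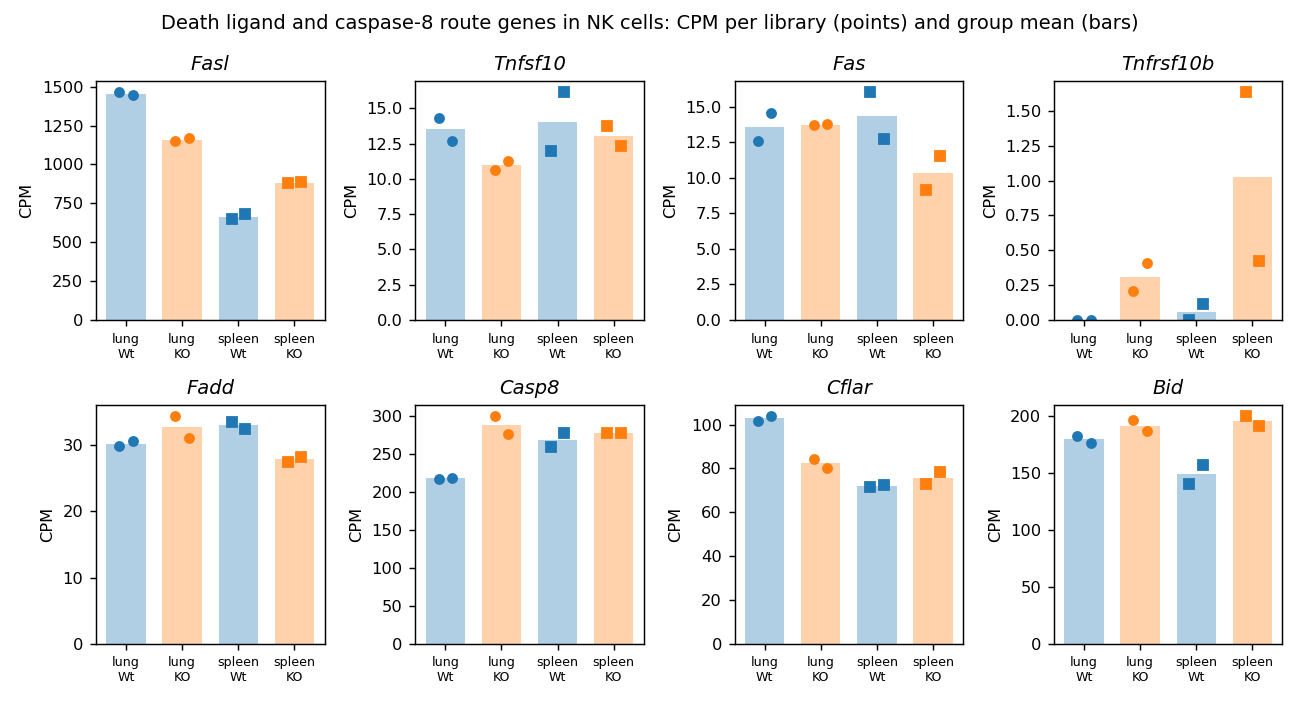
Level of each of the 8 members in every library, in TMM-scaled CPM on a separate vertical axis per gene, for lung Wt, lung KO, spleen Wt and spleen KO. Points are libraries and bars are group means. *Fasl* sits at 1447 to 1463 CPM in lung Wt and at 646.5 to 682.4 CPM in spleen Wt, with both KO groups between them.

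*Tnfsf10* (ENSMUSG00000039304.11, chr3:27317028-27342427, plus strand) encodes TRAIL and was low everywhere. It was at 14.3 and 12.7 CPM in lung Wt and 10.6 and 11.3 CPM in lung KO, against 11.99 and 16.1 CPM in spleen Wt and 13.7 and 12.3 CPM in spleen KO. The lung KO libraries were the lowest of all, and the spleen groups overlapped. The difference in lung was -0.32 (SE 0.17, edgeR adjusted p = 0.112), and that in spleen was -0.24 (SE 0.14, edgeR adjusted p = 0.147). Neither passed the test, the lung value was -0.21 without lung Wt replicate 1, and the 42 to 321 reads per library behind these values limit their precision. The spleen difference passed with an offset for GC content (-0.34, edgeR adjusted p = 0.0345) and without spleen Wt replicate 1 (-0.37, edgeR adjusted p = 0.0408). It changed sign without spleen Wt replicate 2 (0.06) and was -0.10 without spleen KO replicate 2, so single libraries decided this value.

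Levels of different genes were compared per length, as CPM per kb of merged exons. On that scale *Fasl* was at 751 in lung Wt and 343 in spleen Wt, and *Tnfsf10* at 2.08 to 2.67 over the 4 group means. *Fasl* stood at the 99.0th to 99.6th percentile of the 12502 tested genes with an exon length, and *Tnfsf10* at the 28.9th to 34.4th. Per length, *Fasl* was the more abundant of the 2 ligands in every group.

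*Fas* (ENSMUSG00000024778.13, chr19:34290666-34327772, plus strand) encodes the receptor of FAS ligand. It was at 12.6 and 14.5 CPM in lung Wt and 13.7 and 13.7 CPM in lung KO, against 16.0 and 12.7 CPM in spleen Wt and 9.14 and 11.5 CPM in spleen KO. The spleen KO libraries were the lowest, and the other 3 groups overlapped one another. The spleen difference of -0.30 did not pass the test (SE 0.15, edgeR adjusted p = 0.0735), nor did that in lung (0.05, SE 0.16, edgeR adjusted p = 0.798), which was -0.09 without lung Wt replicate 1 and 0.13 without lung Wt replicate 2. The spleen difference passed with unscaled library totals (-0.37, edgeR adjusted p = 0.0296) and with the GC offset (-0.38, edgeR adjusted p = 0.0245). Without spleen Wt replicate 2 it was -0.51 and passed (edgeR adjusted p = 0.0421), and it was -0.60 without spleen KO replicate 2 and -0.19 without spleen Wt replicate 1, neither of which passed.

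*Tnfrsf10b* (ENSMUSG00000022074.6, chr14:69767472-69784411, plus strand) encodes the mouse TRAIL receptor with a death domain. It had 0 and 0 reads in lung Wt against 1 and 3 in lung KO, while spleen Wt had 0 and 1 and spleen KO 5 and 11. A count of 0 allows up to 3 reads, or 0.373 and 0.777 CPM in the lung Wt libraries. The gene was thus at or near the limit of detection and was not tested.

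*Fadd* (ENSMUSG00000031077.7, chr7:144577318-144582463, minus strand) encodes the adaptor between receptor and caspase. It was at 29.8 and 30.6 CPM in lung Wt and 34.4 and 31.0 CPM in lung KO, against 33.5 and 32.5 CPM in spleen Wt and 27.4 and 28.3 CPM in spleen KO. The spleen KO libraries were again the lowest. In spleen *Fadd* fell by 0.22 (SE 0.09, edgeR adjusted p = 0.0411), and in lung it differed by 0.11 (SE 0.11, edgeR adjusted p = 0.406; 0.05 without lung KO replicate 1 and 0.19 without lung KO replicate 2). The spleen call was lost with DESeq2 (adjusted p = 0.313), with the GC offset (edgeR adjusted p = 0.201), and when any of the 4 spleen libraries was left out (edgeR adjusted p = 0.0605 to 0.234). Its exons share 239 bases with the opposite-strand gene *Faddos*, which had 10 to 117 reads per library, and reads of such pairs cannot be told apart without strand.

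*Casp8* (ENSMUSG00000026029.14, chr1:58795374-58847503, plus strand) encodes caspase-8, the initiator protease of the route. It was at 217 and 219 CPM in lung Wt and 299.7 and 276 CPM in lung KO, against 259 and 278 CPM in spleen Wt and 277 and 278 CPM in spleen KO. Lung Wt was the low group, clear of all other libraries, and the remaining 6 libraries overlapped. In lung *Casp8* rose by 0.40 (SE 0.05, edgeR adjusted p = 1.73e-08), a change of 31.8%. In spleen the difference was 0.04 (SE 0.05, edgeR adjusted p = 0.474). The effects in the 2 organs differed by 0.36 (SE 0.07, edgeR adjusted p = 2.30e-05).

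*Cflar* (ENSMUSG00000026031.15, chr1:58711508-58758884, plus strand) encodes c-FLIP, the inhibitor of caspase-8, and ends 36.5 kb before *Casp8* starts on the same strand. It was at 102 and 104 CPM in lung Wt and 84.5 and 80.4 CPM in lung KO, against 71.7 and 72.6 CPM in spleen Wt and 72.8 and 78.3 CPM in spleen KO. Lung Wt was the high group, followed by lung KO, and the spleen libraries were lowest. In lung *Cflar* fell by 0.32 (SE 0.07, edgeR adjusted p = 0.000102), a change of -19.9%. In spleen the difference was 0.10 (SE 0.06, edgeR adjusted p = 0.201). The organs differed in this effect by -0.42 (SE 0.09, edgeR adjusted p = 0.000190). With that wider spread of 0.1 the lung call was lost for *Cflar* (adjusted p = 0.101) and held for *Casp8* (adjusted p = 0.0244), but the calls of a difference between organs were lost for *Casp8* (adjusted p = 0.168), *Cflar* (adjusted p = 0.147) and *Bid* (adjusted p = 0.262). With the spread set to 0.2, no call between genotypes held for any member (*Casp8* in lung, adjusted p = 0.430).

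The ratio of *Casp8* to *Cflar* reads does not depend on how libraries are scaled. It was 2.13 and 2.11 in lung Wt and 3.55 and 3.44 in lung KO. Spleen Wt gave 3.61 and 3.83, and spleen KO gave 3.81 and 3.55. Lung Wt stood apart, at a mean of 2.12 ± 0.02 (SD, n = 2), while the other 6 libraries lay between 3.44 and 3.83. With 2 libraries against 2, an exact two-sided permutation test cannot give a p below 0.333, so no test of the ratio is given. The lung Wt libraries also stood apart in composition, with 1.36% and 1.45% of reads on mitochondrial genes against 0.792% to 1.004% elsewhere, and 10.4% and 10.9% on the 10 most abundant genes against 8.09% to 9.40%. The part of these shares in the ratio was not tested. The ratio is of reads and not per length, and *Cflar* has 12669 bases of merged exons against 2893 for *Casp8*.

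**Figure D2:**
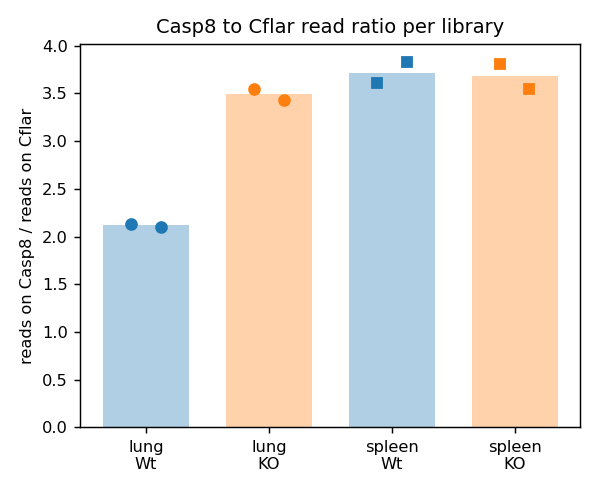
Reads of *Casp8* divided by reads of *Cflar* in each of the 8 libraries (vertical axis, no unit), by group. Points are libraries and bars are group means. The 2 lung Wt libraries lie at 2.11 and 2.13, below the other 6, which lie at 3.44 to 3.83.

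*Bid* (ENSMUSG00000004446.12, chr6:120891930-120916853, minus strand) encodes the protein that links caspase-8 to mitochondria. It was at 182 and 176 CPM in lung Wt and 196 and 186 CPM in lung KO, against 140.1 and 157 CPM in spleen Wt and 199.8 and 191 CPM in spleen KO. Spleen Wt was the low group and overlapped with no other. In spleen *Bid* rose by 0.36 (SE 0.05, edgeR adjusted p = 5.04e-07), a change of 28.1%. In lung the difference was 0.08 (SE 0.06, edgeR adjusted p = 0.204). The organs differed in this effect by -0.27 (SE 0.08, edgeR adjusted p = 0.00228), a call lost with unscaled library totals (-0.11, edgeR adjusted p = 0.202). With those totals the lung difference passed the test (0.18, edgeR adjusted p = 0.00645), and with the GC offset it was -0.05 (edgeR adjusted p = 0.460). Of its exon bases, 628 are shared with the opposite-strand gene *Bcl2l13*, which had 87 to 825 reads per library.

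**Figure D3:**
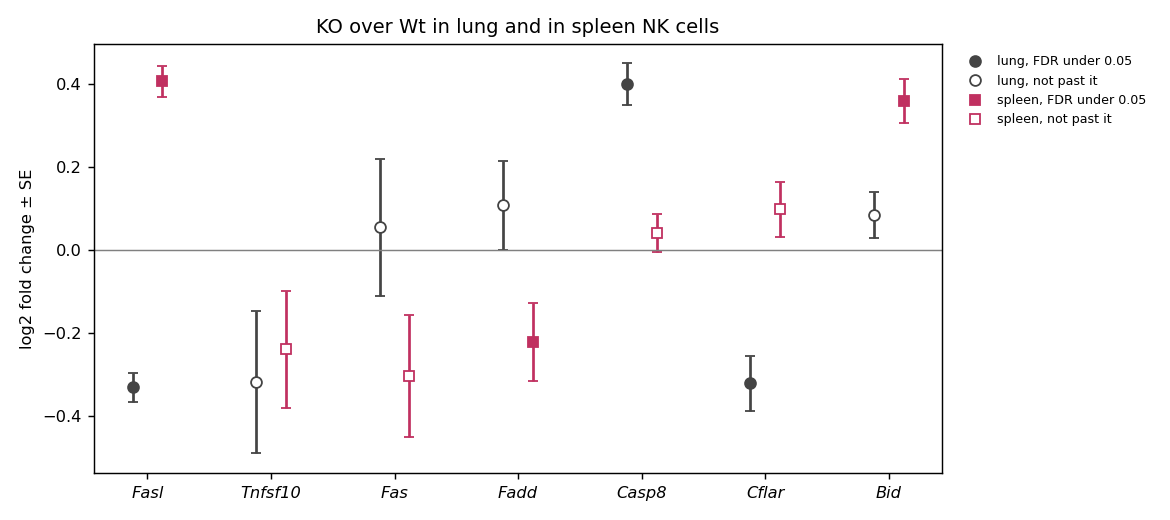
Difference between KO and Wt on the log2 scale (vertical axis) for the 7 tested members, in lung and in spleen, with bars of 1 SE and filled symbols where the test was passed. *Fasl* lies at -0.33 in lung and 0.41 in spleen, *Casp8* at 0.40 and 0.04, *Cflar* at -0.32 and 0.10, and *Bid* at 0.08 and 0.36. *Tnfrsf10b*, which was not tested, is not drawn.

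Per length, *Casp8* and *Bid* were the next most abundant members after *Fasl*. *Casp8* was at 75.3 to 99.5 CPM per kb and *Bid* at 41.9 to 55.0 CPM per kb over the 4 group means. *Fadd*, *Cflar* and *Fas* followed at 7.13 to 8.45, 5.69 to 8.12 and 5.01 to 6.97 CPM per kb, ranges that overlapped. *Tnfsf10* was lower, and *Tnfrsf10b* was at most 0.188 CPM per kb. The order *Fasl*, *Casp8*, *Bid* held in every group.

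The organs were next compared within a genotype. In Wt cells 4 of 7 members passed the test between lung and spleen (3 higher in lung, 1 lower), against 57.0% of all tested genes. *Fasl*, *Cflar* (0.51, SE 0.07, edgeR adjusted p = 6.67e-08) and *Bid* (0.26, SE 0.06, edgeR adjusted p = 0.000224) were higher in lung. *Casp8* was lower there (-0.31, SE 0.05, edgeR adjusted p = 1.85e-06). With the spread set to 0.1, the calls of *Casp8* (adjusted p = 0.0995) and *Bid* (adjusted p = 0.157) were lost.

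In KO cells 1 of 7 passed, *Fasl*, against 65.6% of all tested genes. The organ differences of *Cflar* (0.09, SE 0.06, edgeR adjusted p = 0.223), *Casp8* (0.05, SE 0.05, edgeR adjusted p = 0.390) and *Bid* (-0.02, SE 0.05, edgeR adjusted p = 0.774) did not pass. With 1 library left out they ran from 0.07 to 0.18 for *Cflar*, -0.0006 to 0.11 for *Casp8* and -0.06 to 0.02 for *Bid*. The test of whether the organ gap differed between the genotypes is the interaction contrast, given above for *Fasl*, *Casp8*, *Cflar* and *Bid* and below for *Fadd*. For *Tnfsf10* it was -0.08 (SE 0.22, edgeR adjusted p = 0.801). For *Fas* it was 0.36 (SE 0.22, edgeR adjusted p = 0.157), and 0.21 to 0.65 with 1 library left out. The *Fas* contrast passed with library totals (0.52, edgeR adjusted p = 0.0399) and with the GC offset (0.50, edgeR adjusted p = 0.0456). Between organs in KO cells, *Fas* and *Fadd* passed beside *Fasl* with library totals (0.35 and 0.26, edgeR adjusted p = 0.0379 and 0.0172). With the GC offset *Fas* (0.40, edgeR adjusted p = 0.0167) and *Cflar* (0.18, edgeR adjusted p = 0.00991) did, so the *Cflar* value in KO cells depended on that offset as well as on single libraries.

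**Figure D4:**
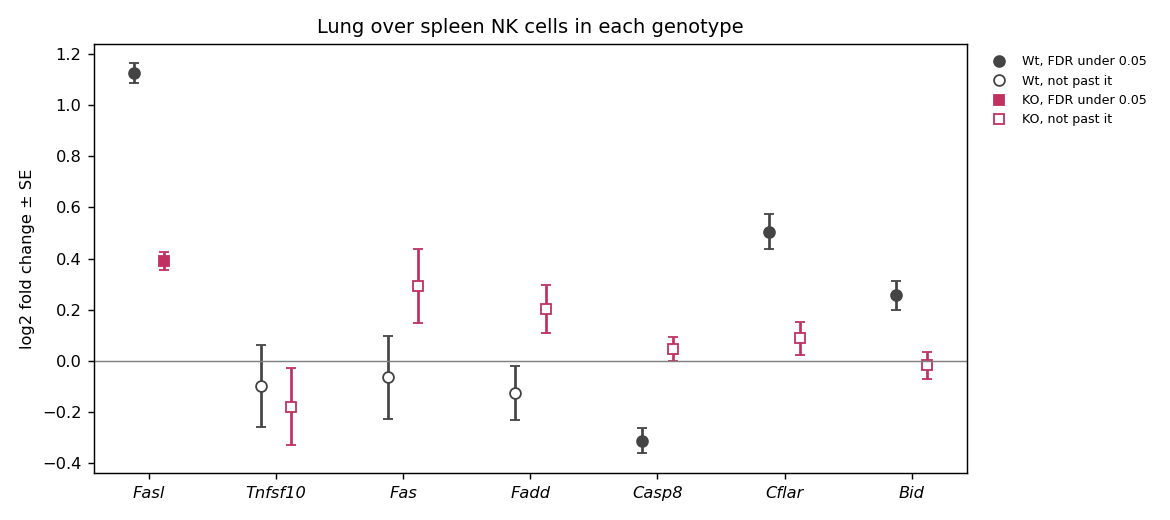
Difference between lung and spleen on the log2 scale (vertical axis) for the 7 tested members, in Wt and in KO, with bars of 1 SE. The *Fasl* gap is 1.13 in Wt and 0.39 in KO, the *Cflar* gap 0.51 and 0.09, the *Casp8* gap -0.31 and 0.05, and the *Bid* gap 0.26 and -0.02. *Tnfrsf10b* is not drawn.

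The genes whose levels ran most like those of 3 members were listed by Pearson's r of log2 CPM over the 8 libraries, among 8092 genes with a mean of at least 10 CPM. They were *Gm42659* (0.994), *Eif3a* (0.992) and *Cyp4f16* (0.991) for *Fasl*. *Sass6* (0.992), *Tes* (0.991) and *Tmem170b* (0.990) were nearest to *Cflar*. The nearest to *Tnfsf10* were *Gm17638* (0.920), *Gid4* (0.889) and *Tasp1* (0.889). The 8 libraries form 4 groups and are not 8 independent points.

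The other genes of the pathway were taken from a list of 43, of which 39 were tested. In lung KO cells 16 were higher and 7 lower (median log2 difference 0.09, against 0.02 for all tested genes). Across all tested genes 29.2% were higher and 26.4% lower. In spleen KO cells 6 were higher and 21 lower (median -0.27, against 0.00 for all), with 28.2% of all genes higher and 28.9% lower. The KO effect in lung minus that in spleen was above 0 for 22 of the 39 and below 0 for 6 (median 0.53, against 0.03 for all), with 32.5% and 29.0% of all genes in these directions.

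These 3 splits were the same with RLE and upper-quartile scaling, and library totals gave 19 higher and 5 lower in lung, 5 and 23 in spleen, and 25 and 6 for the difference between organs. With the GC offset the list had 15 higher and 13 lower in lung, 8 and 17 in spleen, and 17 and 11 for the difference between organs, where its median was 0.19. The list's medians in that fit were -0.01 in lung and -0.09 in spleen, against -0.03 and 0.01 for all tested genes. All tested genes in that fit gave 3164 higher and 3628 lower in lung, 3663 and 3318 in spleen, and 3548 and 3878 for the difference, where their median was -0.03. The KO effect ran with the GC content of genes across the 12502 genes with a known value (Spearman's rho 0.289 in lung and -0.272 in spleen). The part of GC content in each gene's difference was not tested further.

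Among the ligands, 1 of 3 tested was higher in lung and 2 of 3 lower in spleen. *Ltb*, which encodes lymphotoxin beta, went from 67.3 to 78.2 CPM in lung (0.23, edgeR adjusted p = 0.0129) and from 272 to 205 CPM in spleen (-0.39, edgeR adjusted p = 3.85e-08). Its direction depended on the processing: with the GC offset the lung value turned to -0.18 and passed (edgeR adjusted p = 0.0475), and the spleen value was -0.03 (edgeR adjusted p = 0.591). *Tnf* had 0 to 21 reads per library and *Lta* 0 to 43, and neither was tested.

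Of the 4 death and decoy receptors tested, 2 were higher in lung, and in spleen 1 was higher and 3 were lower. *Tnfrsf23*, a decoy receptor of TRAIL, had 0 and 0 reads in lung Wt against 8 and 14 in lung KO. That is at least 7.13-fold higher, with 3 reads over the Wt group as the floor. In spleen it had 3 and 12 reads in Wt and 0 and 1 in KO. *Tnfrsf1a*, the main receptor of TNF, rose by 0.66 in lung (edgeR adjusted p = 3.94e-05) and fell by 0.30 in spleen (edgeR adjusted p = 0.0196), the latter lost with the GC offset (-0.07, edgeR adjusted p = 0.613).

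Of the 12 adaptors, ubiquitin ligases and kinases at the receptor, 4 were higher and 2 lower in lung, and 1 was higher and 7 lower in spleen. *Rbck1*, a part of the linear ubiquitin ligase, rose by 0.66 in lung (edgeR adjusted p = 5.44e-07) and fell by 0.68 in spleen (edgeR adjusted p = 8.38e-09). The KO effect on *Rbck1* differed between the organs by 1.33 (SE 0.13, edgeR adjusted p = 1.80e-11). *Ripk1*, the kinase that decides between survival and death at TNF receptors, rose by 0.32 in lung (edgeR adjusted p = 0.000992) and fell by 0.60 in spleen (edgeR adjusted p = 8.78e-09). *Mlkl*, the effector of necroptosis, went the other way, at -0.46 in lung (edgeR adjusted p = 0.000806) and 0.67 in spleen (edgeR adjusted p = 1.60e-06).

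Of the 5 other caspases, 2 were higher and 1 lower in lung, and 1 was higher and 3 lower in spleen. *Casp9*, the initiator caspase of the mitochondrial arm, rose by 0.70 in lung (edgeR adjusted p = 4.44e-05), and its difference in spleen was -0.11 (edgeR adjusted p = 0.393). *Casp6*, an executioner caspase, fell by 0.44 in lung (edgeR adjusted p = 3.03e-07) and rose by 0.48 in spleen (edgeR adjusted p = 5.75e-09).

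Of the 7 inhibitors and modulators, 3 were higher and 3 lower in lung, and 2 were higher and 3 lower in spleen. *Casp8ap2*, which encodes a protein that binds caspase-8, fell by 0.66 in lung (edgeR adjusted p = 1.65e-10), while *Dedd2*, a death effector domain gene, fell by 0.56 in spleen (edgeR adjusted p = 3.50e-08). The KO effect on *Daxx*, whose product binds FAS, differed between the organs by 0.99 (edgeR adjusted p = 8.87e-09).

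In the mitochondrial arm, 4 of 8 were higher and 1 lower in lung, and 1 was higher and 3 lower in spleen. *Bak1*, a pore-forming BCL2 family member on which BID acts, fell by 0.99 in spleen (edgeR adjusted p = 1.08e-09) and rose by 0.32 in lung (edgeR adjusted p = 0.0173), the latter lost with the GC offset (0.01, edgeR adjusted p = 0.939). *Dffb*, the apoptotic nuclease, rose by 0.75 in lung (edgeR adjusted p = 7.67e-06). *Cycs*, which encodes cytochrome c, fell by 0.58 in lung (edgeR adjusted p = 1.01e-08) and rose by 0.50 in spleen (edgeR adjusted p = 1.62e-07).

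Among these genes, *Ltb*, *Casp6* and *Bak1* also had the largest difference of the KO effect between organs within their role. It was 0.63 for *Ltb* (edgeR adjusted p = 4.86e-07, but -0.14 and not called with the GC offset), -0.92 for *Casp6* (edgeR adjusted p = 9.09e-12) and 1.30 for *Bak1* (edgeR adjusted p = 4.38e-09). Between organs, 8 of the 39 were higher and 18 lower in lung than in spleen in Wt cells, and 22 higher and 12 lower in KO cells. All genes gave 27.7% higher and 29.3% lower in Wt and 33.9% higher and 31.7% lower in KO. The organ difference of *Ltb*, lower in lung, was -2.01 on the log2 scale in Wt (edgeR adjusted p = 5.10e-25) and -1.38 in KO (edgeR adjusted p = 7.19e-21).

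In Wt cells the lung level was also lower for *Rbck1* (-0.79, edgeR adjusted p = 6.74e-09), *Casp9* (-0.81, edgeR adjusted p = 2.47e-06) and *Dffb* (-0.92, edgeR adjusted p = 1.16e-07), and higher for *Casp8ap2* (0.55, edgeR adjusted p = 6.34e-09). In KO cells it was higher for *Ripk1* (0.61, edgeR adjusted p = 3.57e-09), *Daxx* (0.95, edgeR adjusted p = 7.61e-13) and *Bak1* (1.04, edgeR adjusted p = 1.29e-10), and lower for *Casp6* (-0.62, edgeR adjusted p = 8.42e-12).

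**Figure D5:**
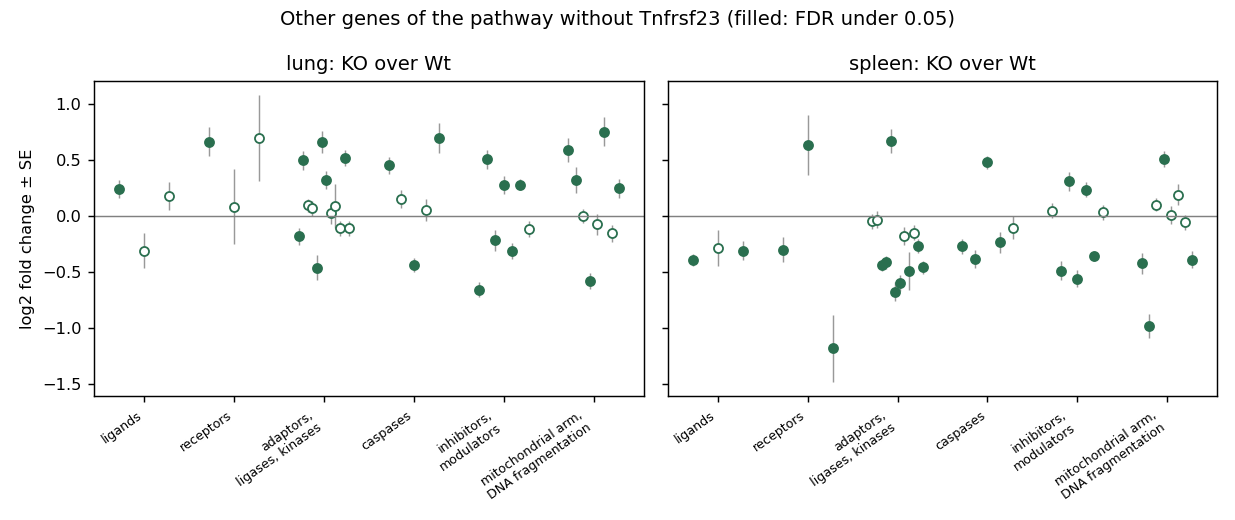
KO effect on the log2 scale in lung and in spleen for the tested genes of the rest of the pathway, grouped by role, with lines of 1 SE. Filled points passed the test at an adjusted p of 0.05. *Rbck1* lies at 0.66 in lung and -0.68 in spleen, and *Casp6* at -0.44 and 0.48. *Tnfrsf23*, with 0 reads in lung Wt, is not drawn.

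Markers listed for NK cells, other cells and handling moved with the groups. The summed level of 9 NK cell markers was 49441 and 50810 CPM in lung Wt and 39016 and 39453 CPM in lung KO, against 35503 and 36053 CPM in spleen Wt and 46146 and 48429 CPM in spleen KO, the order of the *Fasl* groups except that both KO groups changed places. *Gzma* and *Nkg7* made up most of this sum, and the list did not move in 1 direction: of its 9 genes, 2 were higher and 5 lower in lung KO, and 7 higher and 2 lower in spleen KO. *Tbx21*, a transcription factor of NK cells, was at 1.14 on the log2 scale in lung and -1.18 in spleen (edgeR adjusted p = 3.43e-22 and 5.08e-22), and *Prf1*, which encodes perforin, at 0.74 and -0.48 (edgeR adjusted p = 2.23e-19 and 1.34e-13). Their part in the members' results was not tested. A list of 12 immediate early and heat shock genes, which respond to handling of tissue as well as to activation, summed to 753 to 807 CPM in lung Wt and 1725 to 1730 CPM in lung KO, and to 499 to 546 CPM in spleen Wt and 212 to 223 CPM in spleen KO. Its part in the KO effects of the members was not tested.

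Lung epithelium markers, led by *Sftpc*, summed to 252 to 254 CPM in lung Wt and 360.4 to 398 CPM in lung KO, and to at most 0.651 CPM in spleen. Of the 6 epithelial markers, 4 or 5 had reads in a lung library. *Sftpc* (154 to 267 CPM) and *Sftpa1* (12.7 to 46.5 CPM) were higher in lung KO and *Scgb1a1* (85.3 to 62.2 CPM) was lower. The markers of T cells summed to 67.6 to 68.9 CPM in lung Wt, 48.5 to 51.3 CPM in lung KO and 158 to 178 CPM in spleen. The gate against TCRb excludes only T cells that bear it. *Trac* was lower in lung KO (22.6 to 10.1 CPM) and higher in spleen KO (20.1 to 28.7 CPM), and *Cd3e* was lower in spleen KO (32.2 to 9.33 CPM). Their part in the KO effects and organ gaps was not tested. B cell markers summed to 5.44 to 7.58 CPM in lung Wt, 9.01 to 10.1 CPM in lung KO and 40.8 to 46.3 CPM in spleen. Macrophage, monocyte and dendritic cell markers summed to 34.7 to 38.9 CPM in lung Wt and 36.6 to 41.8 CPM in lung KO. In spleen they summed to 20.45 to 20.7 CPM in Wt and 26.7 to 27.75 CPM in KO. Of them, *Lyz2* (14.0 to 24.35 CPM) was higher in lung KO, and *Cd68* (15.0 to 9.77 CPM) and *Mrc1* (2.54 to 0.238 CPM) were lower. *Cd68* was higher in spleen KO (13.9 to 20.1 CPM). Neutrophil markers reached at most 2.36 CPM. The markers of ILC1 and immature NK cells, of which 7 or 8 of 8 had reads and *Cd27* was the most abundant, summed to 204 to 205 CPM in lung Wt, 181 to 190.1 CPM in lung KO, 353 to 354 CPM in spleen Wt and 367 to 389 CPM in spleen KO. In lung KO *Cd27* was higher (90.3 to 117 CPM), while *Il7r* (44.5 to 16.9 CPM), *Cxcr6* (32.1 to 18.9 CPM) and *Cd200r1* (10.5 to 3.47 CPM) were lower. Those of endothelium and stroma, led by *Pecam1*, summed to 75.9 to 85.0 CPM in lung Wt, 103 to 104 CPM in lung KO and 64.9 to 74.9 CPM in spleen, with the other 5 of 6 at 0 in every spleen library, and those of erythroid cells and platelets to 43.8 to 52.3 CPM in lung and 1.75 to 2.99 CPM in spleen. Within the latter list, the platelet genes *Pf4* (8.43 to 0.886 CPM) and *Ppbp* (20.7 to 5.42 CPM) were lower in lung KO and the haemoglobin gene *Hbb-bs* (14.9 to 30.2 CPM) was higher. Single markers are given as group means from Wt to KO, were picked with their values in view, and passed edgeR's quasi-likelihood test where called higher or lower. None of these values was tested for its part in the results.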

How the data were processed

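RNA of sorted NK cells was made into libraries with a kit that does not mark strand and sequenced as 50-base reads. The deposited tables hold raw counts of reads per gene symbol, which the authors made by aligning to mm10 (GRCm38) and counting; the submitters' processing notes name HISAT2 2.1.0 and HTSeq 0.11.1. The annotation and strand setting are not given in the sources used here. Between 52.7% and 55.0% of uniquely aligned reads fell on no feature and stayed out of the totals.

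From these counts, genes kept by filterByExpr were scaled by TMM and tested with edgeR 4.0.16 (R 4.3.3, limma 3.58.1) by the quasi-likelihood test, with 1 mean per group over all 8 libraries, no covariates and Benjamini-Hochberg adjustment over 12595 genes at 0.05. CPM are reads per TMM-scaled library size. GENCODE M21 (GRCm38) gave exon lengths and GC content. Replicates differed by more than counting noise (chi-square per degree of freedom 1.20 to 1.42). Data were simulated for the lung comparison (12086 genes, 200 changed) with the spread set to the estimated 2.5%. In them 94% of changes of 1 log2 unit and 38% of those of 0.3 were recovered, and 2.22% of calls were false. The simulation took that spread as given and changed far fewer genes than the 7000 called in lung. It therefore cannot give the share of false calls in the real data.

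The members and lists were chosen with earlier results of these data known. All members were named; of the other pathway genes, the called gene with the largest change in each role and comparison, while *Tnfrsf1a*, *Ripk1* in the comparisons between genotypes, *Mlkl*, *Cycs*, and *Casp6* and *Bak1* in lung were named after their values were seen. Alternatives covered scaling, filters, DESeq2 1.42.0, an assumed spread, a stricter threshold, the libraries fitted, a replicate block, a GC offset and leaving out each library. An assumed biological coefficient of variation of 0.1 was added after seeing the data. Sequences are from RefSeq (GRCm38.p6). 1 gene of the pathway list is not reported here by name.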

Additional observations from a re-analysis of the deposited data

Results flagged for a closer look

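The KO effect differed between lung and spleen for 5 of the 7 tested members, by the interaction contrast of edgeR's quasi-likelihood test. The effect in lung minus that in spleen, on the log2 scale, was -0.74 for *Fasl*, where both libraries of lung KO lay below both of lung Wt and both of spleen KO above both of spleen Wt. It was 0.36 for *Casp8* and -0.42 for *Cflar*, each of which passed the test between genotypes in lung and not in spleen. It was -0.27 for *Bid*, which passed in spleen and not in lung, although with library totals it passed in lung too (0.18, edgeR adjusted p = 0.00645). It was 0.33 for *Fadd*, a call lost under most alternatives. Over all tested genes this contrast called 61.6%.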

How the results depend on the processing

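No called value of a member turned its direction under the alternatives run. Of the calls of other pathway genes, 34 were lost with the GC offset, 11 changed sign with it (*Htra2* in 4 comparisons, *Ltb* and *Tradd* in 2 each, *Dedd2*, *Ripk3* and *Sharpin* in 1 each), and 1 of these stayed called (*Ltb* in lung, 0.23 to -0.18). The number of all genes called (7000 in lung, 7195 in spleen, 7753 for the difference, 7185 between organs in Wt, 8259 in KO) became 4507 in lung and 4165 in spleen with DESeq2; 4131, 4388, 5106 and 4426 in the first 4 at an FDR of 0.001; 1557, 1144, 2017, 2011 and 2316 with the biological coefficient of variation set to 0.2; and 4395 in lung, 4112 in spleen and 4673 between organs in Wt with one of 0.1. Smaller changes in counts are not all given in this paragraph. Members called (3, 3, 5, 4 and 1) became 0, 0, 0, 1 and 0 at 0.2. At 0.1 they became 1 in lung, 2 in spleen, 1 for the difference and 2 between organs in Wt. At an FDR of 0.001 they became 3 for the difference. In KO cells between organs they became 3 with library totals, 2 with at least 10 counts in every library, 3 with the GC offset and 3 with that offset and the replicate block. Other pathway genes called (23, 27, 28, 26 and 34) became 1, 3, 4, 5 and 4 at 0.2; 14, 15, 13 and 18 in lung, spleen, and between organs in Wt and KO at 0.1; and, between organs in Wt and KO, 15 and 21 with DESeq2 and 15 and 22 at an FDR of 0.001. The cause of these changes was not tested, except that the assumed spread exceeds the estimated 2.5% and a stricter threshold calls fewer genes.

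Leaving out 1 library gave 4448 to 7493 genes called in spleen and 21 to 36 other pathway genes between organs in KO, both lowest without spleen KO replicate 2, the deepest library. Library totals shifted the median of all genes to 0.11 in lung, 0.19 for the difference and -0.12 between organs in Wt, with 4419 genes higher and 2561 lower in lung (3674 and 3326 with TMM), 4900 and 2819 for the difference (4099 and 3654), and 2674 and 4579 between organs in Wt (3495 and 3690), where the other pathway genes split into 5 and 22 (8 and 18). The GC offset turned the majority of all genes called in each comparison, to 3164 higher and 3628 lower in lung, 3663 and 3318 in spleen, 3548 and 3878 for the difference, and 3833 and 3261 in Wt and 3929 and 4081 in KO between organs. With the replicate block the calls numbered 6977 in lung and 7185 in spleen, and 1 member's call was lost (*Fadd* in spleen, -0.22, edgeR adjusted p = 0.0545); over 5103 genes the deviations of same-numbered libraries correlated between Wt and KO with r = -0.01 in lung and 0.17 in spleen, and between lung and spleen with 0.00 in Wt and -0.08 in KO, and the labels tie the numbers to no animal or day, so the numbers were not taken as pairs. *Tnfsf10*, *Fas* and *Tnfrsf10b* are limited by depth.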
